A study of Mus musculus with 6 samples.

Results

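miR-150 and miR-342 are microRNAs (miRNAs) of mature lymphocytes. Each is cut from a hairpin precursor that can give a 5p and a 3p strand, and the count table was searched by name for miR-150-5p, miR-150-3p, miR-342-3p and miR-342-5p. All 4 were present among 1960 listed mouse miRNAs. They were counted by small RNA sequencing of immune cells isolated from mouse liver, with 2 libraries in each of 3 groups. All mice were wildtype C57BL/6J females aged 10 weeks. Vehicle mice were free of disease and were given the solvent alone, DMSO in corn oil. ConA+Vehicle mice were given the solvent and, through the retro-orbital sinus, 12.5 mg/kg of ConA (concanavalin A), a T cell-activating lectin used to provoke hepatitis. ConA+D8THC mice were given that ConA dose with D8THC (delta-8-tetrahydrocannabinol), a cannabinoid injected intraperitoneally in 100 µL at 20 mg/kg, first 15 to 18 h ahead of ConA and then 30 min following it. The labels call the libraries biological replicates. How many mice a library represents, and when tissue was taken, is not stated in the labels used here.

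A mature miRNA is loaded into an Argonaute protein and lowers the output of messenger RNAs that pair with its seed, bases 2 to 8. The strand that is loaded more often is called the guide and the other the passenger. miR-150-5p is abundant in resting mature B cells, T cells and natural killer cells, is known for limiting the transcription factor Myb, and is known to decline when T cells are activated. miR-342-3p is found in lymphocytes and in other leukocytes.

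The mature sequences show which strands the member names refer to. They are RefSeq entries on build GRCm38.p6, written 5′ to 3′ with the seed in capitals, and 3 of the 4 members had an entry (miR-150-5p had none).
miR-342-3p: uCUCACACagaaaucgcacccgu
miR-342-5p: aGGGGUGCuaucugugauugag
miR-150-3p: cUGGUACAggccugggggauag
None of the other mature entries among the 1679 distinct names searched had any of these 3 seeds, and none lay within 3 edits (substitutions, insertions or deletions) of any of the 3 sequences. The hairpin of miR-342 follows, with the 5p strand and then the 3p strand in capitals, to show that both come from a shared precursor.
miR-342 hairpin: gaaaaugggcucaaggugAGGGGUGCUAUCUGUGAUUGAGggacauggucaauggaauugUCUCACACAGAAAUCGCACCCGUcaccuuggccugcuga
This hairpin lies on the plus strand of chromosome 12, from 108658620 to 108658718, within an intron of Evl, a gene for an actin-regulating protein transcribed from the same strand (GENCODE M21, build mm10). The miR-150 gene is on the plus strand of chromosome 7, from 45121757 to 45121821, outside any other annotated gene.

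Library totals ran from 322764 to 1172389 counts, and 297 miRNAs passed the filter on low counts and were tested. The 2 libraries of each group differed by more than sampling noise (chi-square per degree of freedom from 13.7 to 216). The arms of miR-142a, which mark blood cells in general, were present in all 6 libraries, but took 7.31% of counts in Vehicle replicate 1 and 2.53% in Vehicle replicate 2, against 7.72% to 11.2% in the 4 libraries from ConA-treated mice. Endothelial markers (2 of 2 with counts in every library) took 32.7% to 34.2% in Vehicle, 12.8% to 13.2% in ConA+Vehicle and 20.7% to 26.7% in ConA+D8THC. Hepatocyte markers (6 of 6) took 8.35% to 13.9%, 17.1% to 19.8% and 5.18% to 7.15% in the same order. Myeloid markers (4 of 4) summed to 0.348% to 0.365% in Vehicle and 1.48% to 2.92% in the other groups, but nearly all of this sum was miR-223-3p, and the list did not move together: in ConA+Vehicle against Vehicle miR-223-3p and miR-223-5p were called higher and miR-511-3p and miR-511-5p lower. Over all 6 libraries erythroid markers (4 of 4) took 0.0434% to 0.180%, stellate cell and fibroblast markers (5 of 5) 0.740% to 1.32%, and bile duct epithelium markers (5 of 5) 0.357% to 0.509%. The 4 miRNAs described here together took 0.517% to 1.08% of a library. The part of these other cell types in the values below was not tested. Leaving hepatocyte and endothelial markers out takes their counts from the library sizes. It keeps the counts of the members as they were, so it is another scaling.

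miR-150-5p was the most abundant of the 4 and ranked 26th by mean level over all listed miRNAs. Levels are given in CPM, counts brought to a common library size by the TMM method. It was at 6694 and 4192 CPM in Vehicle replicates 1 and 2, at 8539 and 6798 CPM in ConA+Vehicle, and at 6424 and 4041 CPM in ConA+D8THC. Both ConA+Vehicle libraries were above all 4 others, the lower of them by little, and the Vehicle and ConA+D8THC libraries overlapped. Group means in the same order were 5443 ± 1769 CPM (SD, n = 2), 7669 ± 1231 and 5232 ± 1685, so that the order from high to low was ConA+Vehicle, Vehicle, ConA+D8THC, with the last 2 not differing beyond their spread.

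miR-342-3p ranked 55th and followed another order. It was at 1203 and 1093 CPM in Vehicle, at 1700 and 2085 CPM in ConA+Vehicle, and at 2962 and 1895 CPM in ConA+D8THC. All 4 libraries from ConA-treated mice were above both Vehicle libraries, and the ConA+Vehicle and ConA+D8THC libraries overlapped. Group means were 1148 ± 77.9 CPM (SD, n = 2), 1893 ± 272 and 2428 ± 754, so that ConA+D8THC was highest by its mean, within its spread from ConA+Vehicle.

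The passenger strands were rare. miR-342-5p was at 29.0 and 22.8 CPM in Vehicle, 27.4 and 13.2 in ConA+Vehicle, and 21.7 and 21.3 in ConA+D8THC, and the groups gave no separate order except that both ConA+D8THC libraries were below both Vehicle libraries. It rested on 4 to 26 counts a library. miR-150-3p had 10 and 12 counts in Vehicle, 1 and 4 in ConA+Vehicle, and 8 and 3 in ConA+D8THC. With exact Poisson 95% intervals such as 0.0253 to 5.57 counts for the lowest library and 4.80 to 18.4 for Vehicle replicate 1, no order of groups could be read from it at this depth. It did not pass the filter and was not tested, so tests cover 3 of the 4 members.

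**Figure D1:**
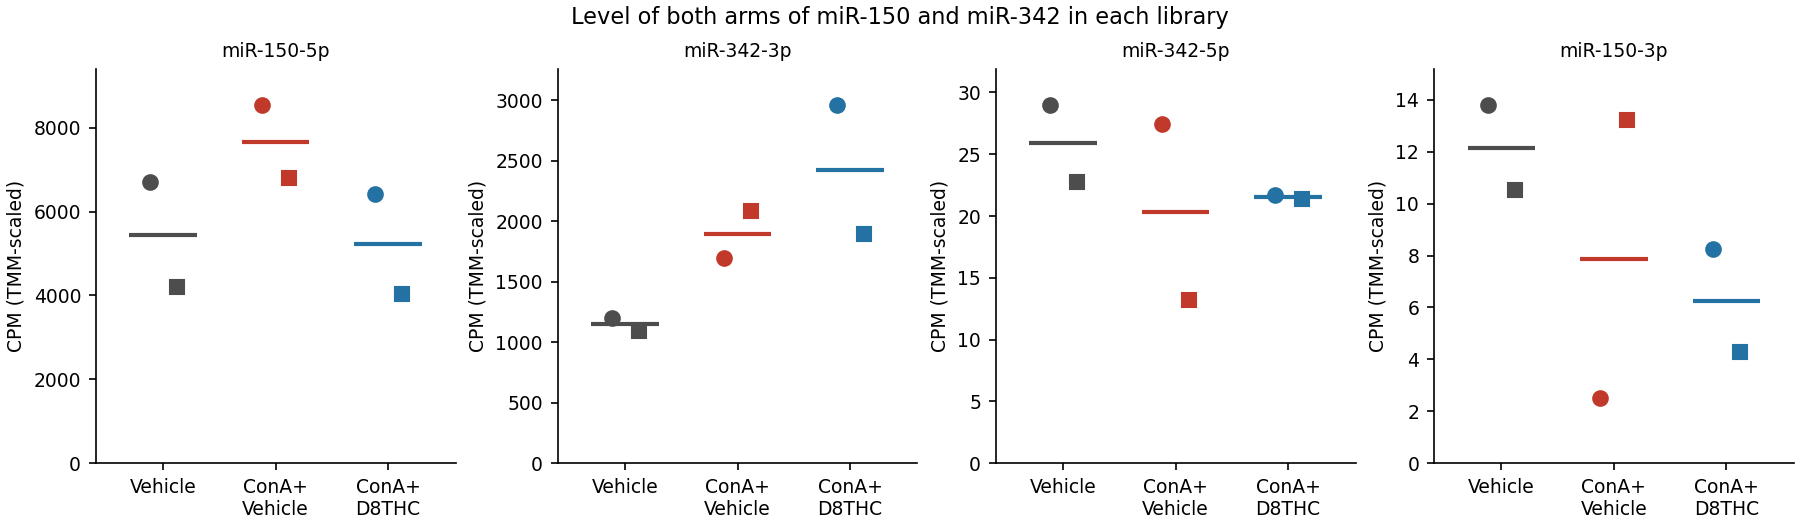
Each panel shows the CPM of a member (vertical axis, from 0) in the 6 libraries by group; circles are replicate 1, squares replicate 2 and bars group means. miR-150-5p is highest in the ConA+Vehicle libraries, at 8539 and 6798 CPM, while miR-342-3p is lowest in the Vehicle libraries, at 1203 and 1093 CPM.

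In ConA+Vehicle against Vehicle, which asks what ConA hepatitis changes, miR-342-3p rose 1.65-fold on the TMM scale and under the other scalings of the whole library, but was at log2 -0.57 when libraries were scaled to miR-142a. The edgeR quasi-likelihood test gave log2 0.72 ± 0.25 (SE; 95% interval 0.16 to 1.28; adjusted p = 0.0468). miR-150-5p was 1.41-fold higher by its mean and was not called (log2 0.50 ± 0.29, interval -0.15 to 1.14, adjusted p = 0.216), although its groups did not overlap. miR-342-5p was at log2 -0.28 ± 0.48 (interval -1.34 to 0.79, adjusted p = 0.722). Thus 1 of the 3 tested members was called, in a comparison where 36.7% of all tested miRNAs were called and 19.9% were called higher. Groups did not overlap for 2 of the 3, against 67.3% of all tested miRNAs, so neither share sets the members apart. In bulk samples, more cells of a type and more RNA per cell cannot be told apart.

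The call of miR-342-3p was lost without Vehicle replicate 2 (adjusted p = 0.0648), without either ConA+Vehicle library (0.0641 for replicate 1 and 0.2625 for replicate 2), with DESeq2 size factors in edgeR (0.0855) or no filter (0.169), and in DESeq2 (0.116) and limma-voom (0.0545), while it held with hepatocyte and endothelial markers left out (log2 0.69, adjusted p = 0.0440). Without Vehicle replicate 1, miR-150-5p was called higher (log2 0.85, adjusted p = 0.0173); over its 17 alternatives the adjusted p lay between 0.0124 and 0.640.

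The effect of D8THC in mice given ConA was read from ConA+D8THC against ConA+Vehicle. The guide strands moved apart in their means, with miR-150-5p 1.47-fold lower (log2 -0.55 ± 0.29, interval -1.20 to 0.09, adjusted p = 0.378) and miR-342-3p 1.28-fold higher (log2 0.36 ± 0.25, interval -0.20 to 0.92, adjusted p = 0.559). Neither passed the edgeR test of the 6 libraries by group, and the intervals still allow a fall of miR-150-5p or a rise of miR-342-3p by a log2 value near 1. miR-342-5p was at log2 0.03 ± 0.50 (adjusted p = 0.990). Of the 3 members, 0 were called by that test, by DESeq2 or by limma-voom, and the unadjusted p was under 0.05 for 0. Of all tested miRNAs 3.7% were called. The groups did not overlap for 1 of the 3 members, miR-150-5p, against 46.8% of all tested miRNAs. Its log2 value ran from -0.91 without ConA+D8THC replicate 1 to -0.22 without ConA+D8THC replicate 2.

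ConA+D8THC against Vehicle gave the largest change of any tested member. miR-342-3p rose 2.12-fold, from 1148 to 2428 CPM (log2 1.08 ± 0.25, interval 0.52 to 1.64, edgeR adjusted p = 0.0102), on the TMM scale and in the other whole-library scalings, but not against miR-142a, where it was at log2 -0.12. DESeq2 (adjusted p = 0.00251) and limma-voom (0.0123) called it as well, and it was called with hepatocyte and endothelial markers left out (log2 1.20, adjusted p = 0.000771). Without ConA+D8THC replicate 1 the call ended (log2 0.74, adjusted p = 0.0543). miR-150-5p was at log2 -0.06 ± 0.29 (interval -0.70 to 0.59, adjusted p = 0.883) and miR-342-5p at log2 -0.25 ± 0.41 (adjusted p = 0.662). Here too 1 of 3 members was called, where 32.7% of all tested miRNAs were called and 18.5% called higher, and groups did not overlap for 2 of 3 against 74.7% of all tested. The comparisons with Vehicle share the Vehicle libraries, so their agreement in direction for miR-342-3p is not independent.

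**Figure D2:**
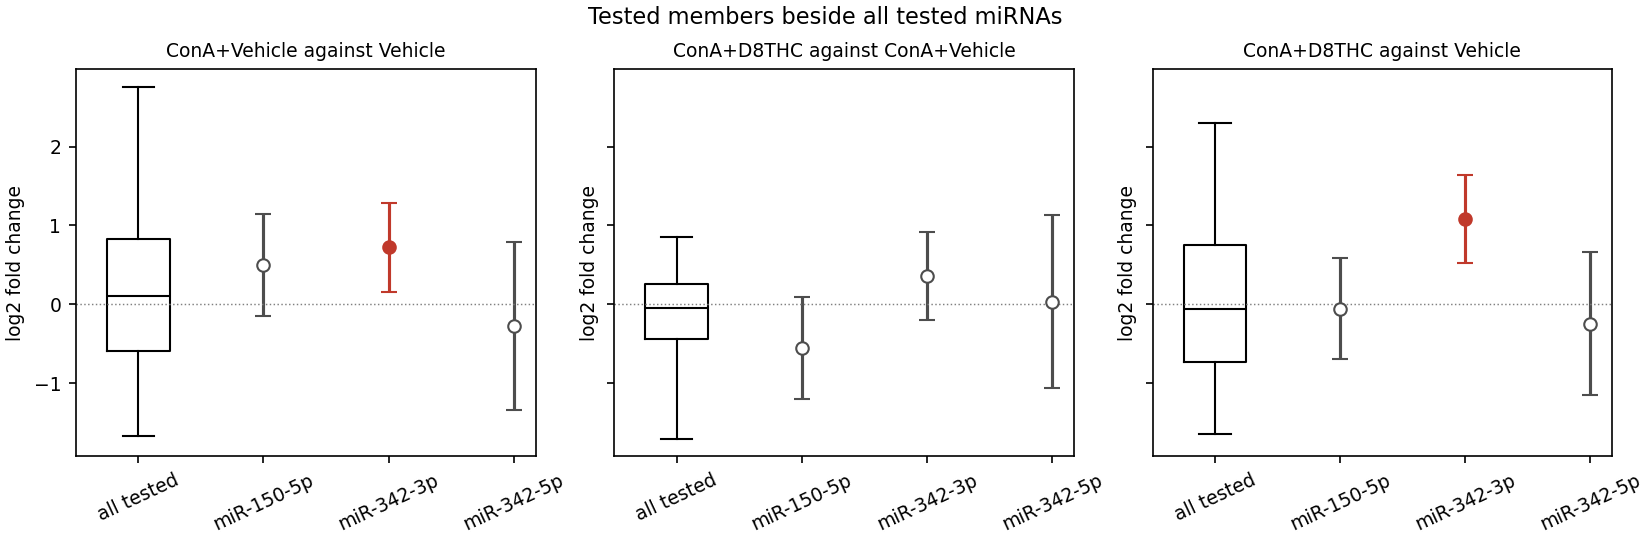
Log2 fold changes (vertical axis) of the 3 tested members with 95% intervals in the 3 comparisons, beside a box for all 297 tested miRNAs (median, quartiles, whiskers at the 5th and 95th percentiles). Filled red points are called at an adjusted p under 0.05: miR-342-3p at log2 0.72 and 1.08 in the comparisons with Vehicle, and no member between the groups given ConA.

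Scaling to miR-142a sets the guide strands beside a miRNA made across blood cells. miR-150-5p was at 8.81 and 16.1 counts per 100 counts of miR-142a (both arms summed) in Vehicle, 8.74 and 7.05 in ConA+Vehicle, and 6.10 and 5.32 in ConA+D8THC. Each ConA+Vehicle library was below both Vehicle libraries and above both ConA+D8THC libraries, though 8.74 and 8.81 lay close together. miR-342-3p was at 1.58 and 4.21 counts per 100 in Vehicle, 1.74 and 2.16 in ConA+Vehicle, and 2.81 and 2.50 in ConA+D8THC. Both ConA+D8THC libraries were above both ConA+Vehicle libraries, and the Vehicle libraries lay on either side of all others.

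These ratios carry the change of miR-142a itself. Its 3p arm, which supplies most of the summed counts, was at 63824 and 20468 CPM in the Vehicle libraries and was not called in ConA+Vehicle (log2 0.83, edgeR adjusted p = 0.222) or in ConA+D8THC (log2 0.75, 0.252) against Vehicle. Its log2 value in ConA+Vehicle was 1.86 without Vehicle replicate 1 (adjusted p = 9.27e-06) and 0.25 without Vehicle replicate 2 (0.624), and it was called without either ConA+D8THC library (0.0333 for replicate 1 and 0.0296 for replicate 2). In ConA+D8THC the values were 1.78 without Vehicle replicate 1 (adjusted p = 2.23e-05) and 0.18 without Vehicle replicate 2 (0.673), and it was called without ConA+Vehicle replicate 2 (0.0371) or ConA+D8THC replicate 2 (0.0405). The 5p arm rose 2.48-fold in ConA+Vehicle (log2 1.31, adjusted p = 0.0188) and 2.26-fold in ConA+D8THC (log2 1.17, 0.0354), with log2 values of 1.98 and 1.85 without Vehicle replicate 1 and of 0.87 and 0.75 without Vehicle replicate 2. The miR-142a scale moved the median of all tested miRNAs to log2 -1.17 and -1.21 in the comparisons with Vehicle. Relative to that median, miR-342-3p was at log2 0.60 in ConA+Vehicle and 1.08 in ConA+D8THC, and miR-150-5p at 0.51 and 0.08. Relative to its own median, the TMM fit gave 0.62 and 1.15 for miR-342-3p and 0.40 and 0.008 for miR-150-5p. The scale largely cancels in such a difference, so these values cannot show whether a rise holds against miR-142a.

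The proportion between the guide strands needs no scaling, since it is taken within a library; it was examined after the counts were seen. There were 18.0 and 26.1 counts of miR-342-3p per 100 of miR-150-5p in Vehicle, 19.9 and 30.7 in ConA+Vehicle, and 46.1 and 46.9 in ConA+D8THC. The ConA+D8THC libraries were above all 4 others and close to each other, while Vehicle and ConA+Vehicle overlapped. Means were 22.03 ± 5.73 (SD, n = 2), 25.3 ± 7.61 and 46.5 ± 0.564. The ratio was not tested; an exact two-sided permutation test of 2 libraries against 2 cannot go below p = 0.333.

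miR-155-5p, a miRNA induced when lymphocytes and macrophages are activated, gives the opposite reference point to the resting-cell miR-150-5p. There were 22.6 and 26.0 counts of miR-155-5p per 100 of miR-150-5p in Vehicle, 107 and 125 in ConA+Vehicle, and 113 and 135 in ConA+D8THC. All 4 libraries from mice given ConA were above both Vehicle libraries, and the groups given ConA overlapped. miR-155-5p itself rose 6.77-fold in ConA+Vehicle (adjusted p = 5.32e-05) and 4.90-fold in ConA+D8THC (adjusted p = 0.000164) against Vehicle, where miR-150-5p was not called in either. On the miR-142a scale miR-155-5p stayed higher by its log2 value, at 1.55 and 1.19, but neither was called (edgeR adjusted p = 0.120 and 0.212). That scale carries the difference of miR-142a between the Vehicle libraries, where its 3p arm was at 63824 and 20468 CPM. A lost call on it therefore does not show that a rise is absent. Between the groups given ConA, miR-155-5p was not called (log2 -0.47, adjusted p = 0.349).

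**Figure D3:**
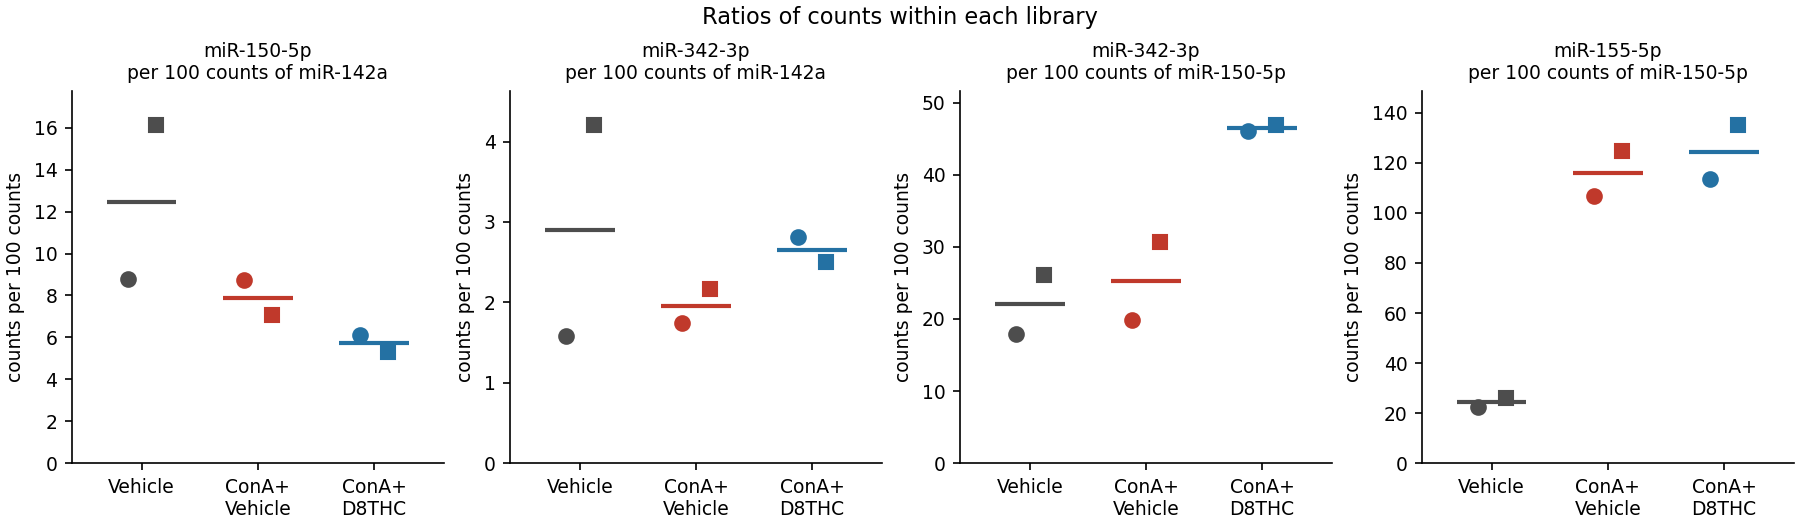
Counts per 100 counts of the reference miRNA (vertical axes, from 0) in each library; circles are replicate 1, squares replicate 2 and bars group means. The third panel shows the ConA+D8THC libraries at 46.1 and 46.9 counts of miR-342-3p per 100 of miR-150-5p, above the other 4. The fourth shows miR-155-5p at over 100 per 100 in every library of the groups given ConA.

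The share of miR-342-5p within its hairpin was compared as a description, without a test. It made up 2.35% and 2.04% of the hairpin's counts in Vehicle, 1.59% and 0.631% in ConA+Vehicle, and 0.726% and 1.11% in ConA+D8THC. Both Vehicle libraries were above the other 4, and ConA+Vehicle and ConA+D8THC overlapped. The exact Clopper-Pearson 95% intervals, which cover counting error only, were 1.46% to 3.57% and 1.34% to 2.98% in Vehicle, against 0.795% to 2.82% and 0.172% to 1.61% in ConA+Vehicle and 0.450% to 1.11% and 0.625% to 1.83% in ConA+D8THC. Except for ConA+D8THC replicate 1, whose interval lay under both Vehicle intervals, each interval overlapped with those of Vehicle. miR-150-3p made up 0.0292% to 0.250% of its hairpin's counts over the 6 libraries, on 1 to 12 counts each. Both Vehicle libraries (0.206% and 0.250%) were above the other 4, of which the highest was at 0.194%. The highest lower bound was 0.129% and the lowest upper bound 0.1625%, so all 6 intervals overlapped. A difference in the strands of miR-150 was not tested.

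The miRNAs whose pattern over the 6 libraries was most like that of each guide strand were found from log2 CPM centred on each miRNA's own mean, by the smallest root mean square difference among 146 other miRNAs with a mean of at least 100 CPM. For miR-150-5p these were miR-15b-5p at 0.065, miR-15a-5p at 0.17 and miR-486a-5p at 0.23 log2 units, where the median of all compared was 0.57. miR-15b-5p and miR-15a-5p share a family known for restraining the cell cycle, and miR-486a-5p is known from red cell precursors. miR-15b-5p was at 947 and 622 CPM in Vehicle, 1326 and 1039 in ConA+Vehicle and 1041 and 643 in ConA+D8THC, so it too was lower in replicate 2 of each group. For miR-342-3p they were miR-1198-5p at 0.096, miR-27a-5p at 0.17 and miR-221-3p at 0.22 log2 units, where the median was 0.63. miR-221-3p, which targets a cell cycle inhibitor, was at 727 and 678 CPM in Vehicle, 1311 and 1069 in ConA+Vehicle and 1434 and 1144 in ConA+D8THC. The guide strands themselves were 0.54 log2 units apart, where miR-342-3p ranked 64th among those closest to miR-150-5p and miR-150-5p ranked 58th among those closest to miR-342-3p. These distances describe 6 libraries and carry no test.

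**Figure D4:**
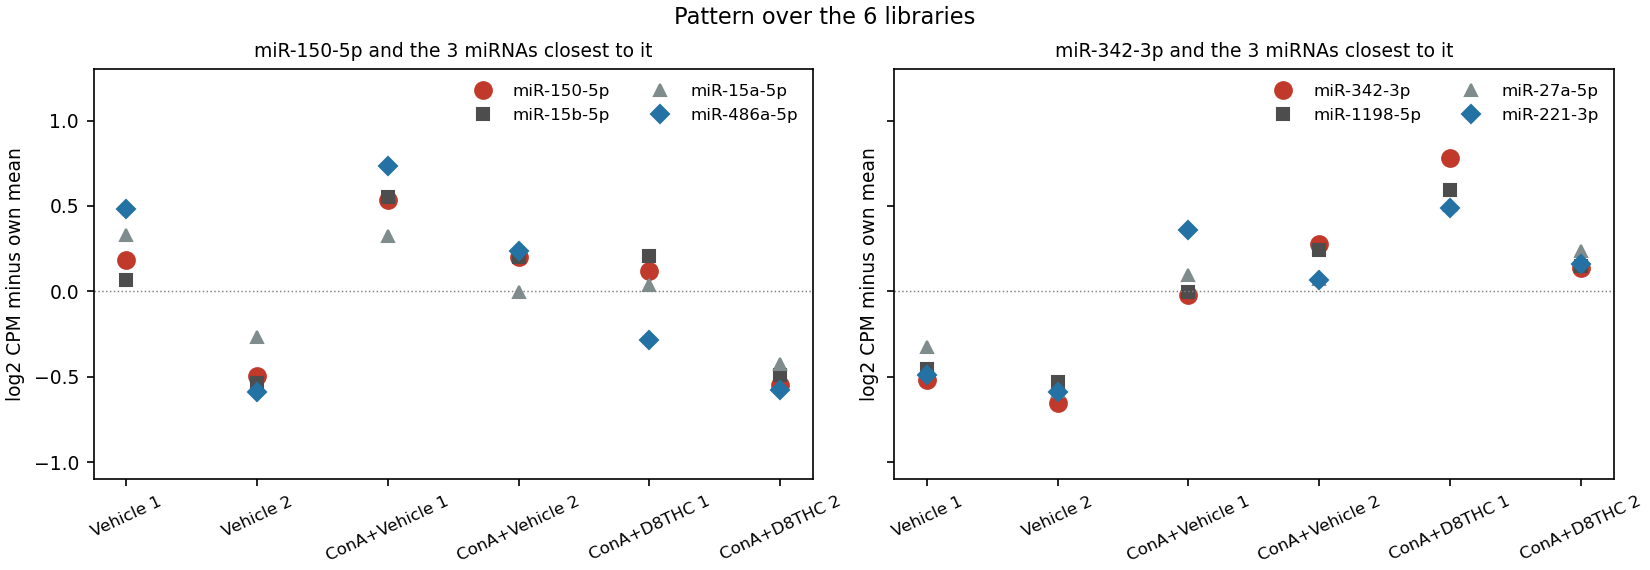
Log2 CPM minus each miRNA's own mean (vertical axis) in the 6 libraries for miR-150-5p (left) and miR-342-3p (right), each with the 3 miRNAs closest to it. miR-150-5p and miR-15b-5p nearly coincide (0.065 log2 units apart), and miR-342-3p is highest in ConA+D8THC replicate 1.

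Other miRNAs known from lymphocytes give the setting, in lists chosen by name. Which cells their counts came from was not tested. The resting lymphocyte list, without miR-150 and miR-342, held miR-181a-5p, miR-181b-5p and miR-181d-5p (which tune T cell receptor sensitivity), miR-26a-5p and miR-26b-5p, and miR-29a-3p, miR-29b-3p and miR-29c-3p (which limit interferon-gamma). In ConA+Vehicle against Vehicle 1 of its 8 tested members rose and 1 fell, where 36.7% of all tested miRNAs were called and 19.9% called higher, with a list median of log2 0.11 beside 0.10 for all tested miRNAs. miR-29c-3p was 1.54-fold higher (adjusted p = 0.0448), and its log2 value was -0.61 on the miR-142a scale. That call held in 8 of 17 alternatives. It was lost with hepatocyte and endothelial markers left out (adjusted p = 0.0570), with DESeq2 size factors in edgeR (0.0913), with no filter (0.274) and in DESeq2 (0.119). It was also lost without Vehicle replicate 2 (adjusted p = 0.202), without either ConA+Vehicle library (0.0627 for replicate 1 and 0.355 for replicate 2) and without ConA+D8THC replicate 2 (0.0549). miR-26a-5p was 1.53-fold lower (adjusted p = 0.0382), which held in 7 of 17 alternatives, including the one without hepatocyte and endothelial markers (0.0299), and did not pass when any of the 6 libraries was left out (adjusted p from 0.0651 to 0.263). miR-181a-5p had means of 502 ± 18.1 CPM (SD, n = 2) for Vehicle, 370 ± 33.4 for ConA+Vehicle and 380 ± 81.0 for ConA+D8THC, and was not called in any comparison. In ConA+D8THC against ConA+Vehicle and against Vehicle the edgeR test called 0 of the 8, as did DESeq2 and limma-voom, and 0 and 1 had an unadjusted p under 0.05, where 3.7% and 32.7% of all tested miRNAs were called.

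The T cell activation-induced list moved otherwise. It held miR-155-5p, miR-21a-5p, miR-210-3p, miR-221-3p, miR-222-3p, miR-132-3p, miR-182-5p, miR-183-5p, miR-96-5p and a cluster of miR-17-5p, miR-18a-5p, miR-19a-3p, miR-19b-3p, miR-20a-5p and miR-92a-3p. The cluster comes from a shared transcript, so its members are not independent. All of them were called higher in both comparisons with Vehicle. miR-132-3p, miR-182-5p, miR-183-5p and miR-96-5p were not called in any comparison. Of the 15 listed members 10 rose and 0 fell in ConA+Vehicle against Vehicle, where 19.9% of all tested miRNAs were called higher. The list median was log2 1.54 beside 0.10 for all tested. In ConA+D8THC against Vehicle 11 rose and 0 fell, where 18.5% of all tested were called higher, with a median of log2 1.20 beside -0.06 for all tested. On the miR-142a scale edgeR called 0 in either (2 and 1 at an unadjusted p under 0.05), and the list medians were log2 0.45 and 0.21 beside -1.17 and -1.21 for all tested. The Vehicle libraries differed in miR-142a itself, so the lost calls do not show that a rise is absent. In ConA+D8THC against ConA+Vehicle the edgeR test called 0 of 15, as did DESeq2 and limma-voom, and 0 had an unadjusted p under 0.05, where 3.7% of all tested miRNAs were called, with a median of log2 -0.34 beside -0.04 for all tested.

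**Figure D5:**
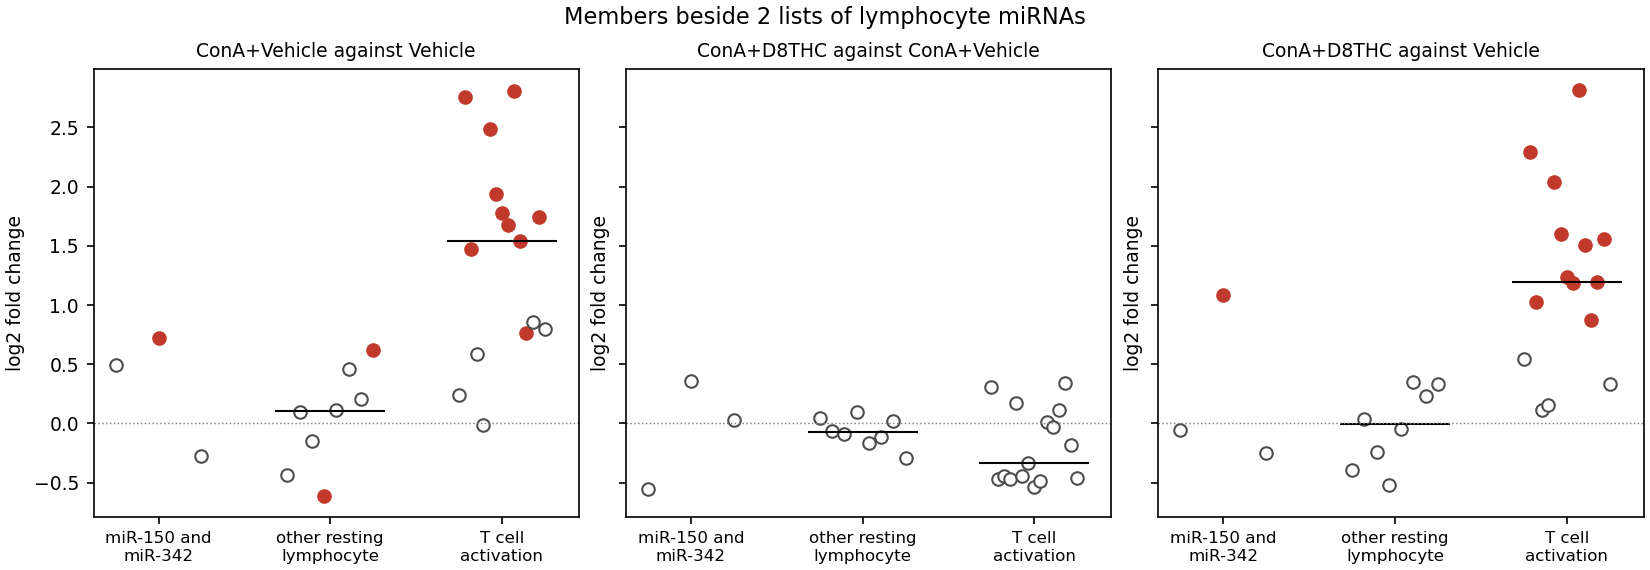
Log2 fold changes (vertical axis) of miR-150 and miR-342 members, of 8 other resting lymphocyte miRNAs and of 15 T cell activation-induced miRNAs in the 3 comparisons; filled red points are called at an adjusted p under 0.05 and bars are medians of the latter 2 lists. The activation list has 10 and 11 called members in the comparisons with Vehicle, and the other resting lymphocyte miRNAs 2 and 0.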

How the data were processed

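The authors counted reads per mature miRNA in QIAGEN's GeneGlobe portal, per the series' design text, and deposited raw counts without normalization; the build, mm10, is named in the submitters' processing notes. Libraries were made with a QIAseq miRNA kit, per the labels' protocols. The aligner, the annotation release and any use of molecular identifiers have no statement in the labels or series text.

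The whole table was fitted in R 4.3.3 with edgeR 4.0.16 (filterByExpr by group, TMM, group-means model of all 6 libraries with 3 residual degrees of freedom, robust glmQLFit, glmQLFTest), with Benjamini-Hochberg adjustment over the 297 tested miRNAs and calls at 0.05. The tested miRNAs held 99.89% or more of each library's counts. Standard errors were derived from the log2 fold change and its F statistic. The 95% intervals use the test's degrees of freedom, 10.3 for miR-150-5p and 10.65 for the arms of miR-342. These add to the 3 residual ones a part borrowed from the spread of all tested miRNAs. DESeq2 1.42.0 and limma 3.58.1 (voom) were alternatives, beside other scalings, no filter, a replicate block and leaving out each library. The procedure was run on simulated data with planted changes as a check of the code, which does not bear on the calls of the members. Figures were drawn in Python 3.11.15 with matplotlib 3.10.9. The edgeR p-values thus rest on the spread between libraries as moderated over all tested miRNAs, not on that of each miRNA alone. That spread may be partly technical.

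The named miRNAs were the 4 members, the marker and lymphocyte lists, and the 3 miRNAs closest in pattern to each guide strand. Members and lists were chosen with earlier results of these data known.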

Additional observations from a re-analysis of the deposited data

How the results depend on the processing

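The direction and call of miR-342-3p in ConA+D8THC against Vehicle held in 15 of 17 alternatives, and those in ConA+Vehicle against Vehicle in 9 of 17. With library sizes set to miR-142a counts, values reversed to log2 -0.66 for miR-150-5p, -0.57 for miR-342-3p and -0.61 for miR-29c-3p in ConA+Vehicle against Vehicle, and to -0.12 for miR-342-3p in ConA+D8THC against Vehicle; the median of all tested miRNAs moved to -1.17 and -1.21 there. miR-150-5p in ConA+D8THC against Vehicle, near 0 in the reported fit, was at log2 0.0566 with library totals, 0.0708 with hepatocyte and endothelial markers left out, 0.0645 with only the 4 libraries compared, and between -0.41 and 0.33 with a library left out, above 0 without Vehicle replicate 1 (0.32), without ConA+Vehicle replicate 2 (0.05) and without ConA+D8THC replicate 2 (0.33). With a library left out, miR-342-5p lay between log2 -0.92 and 0.12 in ConA+Vehicle against Vehicle and between -0.29 and 0.69 in ConA+D8THC against ConA+Vehicle, turning sign without ConA+Vehicle replicate 2; with upper-quartile factors the latter was -0.0634. The cause of these moves was not tested.

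The count of called miRNAs in ConA+Vehicle against Vehicle was 72 on the miR-142a scale (9 higher and 63 lower, against 59 and 50) and 67 to 129 with a library left out. In ConA+D8THC against Vehicle it was 55 on that scale (5 higher and 50 lower, against 55 and 42) and 63 to 112 with a library left out. In ConA+D8THC against ConA+Vehicle, 11 in the reported fit, it was 17 with upper-quartile factors, 4 on the miR-142a scale, 19 with no filter, 17 in DESeq2, 18 with only the 4 libraries compared, 44 with the replicate block and 8 to 40 with a library left out.

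Replicate numbers recur in the groups, but the labels tie them to no shared animal, day or batch, so the block was not used in the reported fit. Deviations of same-numbered libraries correlated across miRNAs at 0.203, 0.238 and 0.0726, which alone does not show whether the numbers mark a pairing. With the replicate block, miR-150-5p was called in ConA+Vehicle against Vehicle (log2 0.53, edgeR adjusted p = 0.0124). It was also called in ConA+D8THC against ConA+Vehicle (log2 -0.58, adjusted p = 0.0194), and miR-342-3p kept its calls.

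Relative to miR-142a-5p alone, group means of miR-150-5p were 65.4, 34.9 and 26.0 counts per 100 in Vehicle, ConA+Vehicle and ConA+D8THC. Those of miR-342-3p were 14.8, 8.62 and 12.1. Relative to miR-142a-3p alone, means in the groups given ConA were 10.2 and 7.32 for miR-150-5p and 2.52 and 3.40 for miR-342-3p. By construction these means exceed the values against both arms. In Vehicle replicates 1 and 2, miR-142a-3p had 46251 and 23349 counts, miR-150-5p 4851 and 4782, and miR-342-3p 872 and 1247. Depth limits the passenger strands, with 1 to 26 counts a library.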
